A study of Saccharomyces cerevisiae with 6 samples.

Results

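The small subunit processome is the large particle of proteins and U3 small nucleolar RNA that forms on the nascent ribosomal RNA precursor and cuts out the RNA of the small ribosomal subunit. Its assembly genes were taken here as a list of 49 protein genes of Saccharomyces cerevisiae, named through the platform annotation of the array, with probe sets that name 1 gene only and the brightest probe set where a gene had several. All 49 had such a probe set, out of 5656 genes with one on the array, and the platform lists DBP4 as HCA4. None of the 49 reached the lower limit set for dim values on any array. All 49 also passed the filter on low mean values and were among the 4242 genes tested.

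Total RNA of yeast grown at 30 °C was hybridised to 6 Affymetrix arrays. Of these 2 came from wild type (WT), 2 from an FHL1 deletion strain and 2 from a strain lacking both FHL1 and IFH1, and within each group the labels speak of a first and a second experiment. The sources used here do not give the strain background, mating type, medium or deletion alleles. Nor do the labels state that a group's arrays are from separate cultures, so the p-values measure only how these arrays spread, which may be technical. The number of arrays limits the precision.

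Ribosome assembly starts while RNA polymerase I is still transcribing. The UTP-A complex binds the leader of the precursor, the UTP-B complex and the U3 ribonucleoprotein follow, and U3 pairs with the precursor so that nucleases can release the small-subunit RNA. FHL1, a forkhead-type protein, and its coactivator IFH1 act at ribosomal protein gene promoters in yeast, whereas assembly factor genes belong to a separate group that is coregulated with growth and is known for other promoter elements. IFH1 also occurs in a complex with the assembly factors UTP22 and RRP7 and with casein kinase 2. Each mutant group was compared with WT, which asks what these transcripts do without FHL1 and without both proteins, and the mutant groups were compared with each other, which asks what the loss of IFH1 adds.

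Levels are scaled log2 signals, in which each array's median over the probe sets naming 1 gene was set to a common value, so fewer cells, or less messenger RNA per cell, cannot be told apart from no change. Values are given with the first experiment before the second unless stated otherwise. The label checks held for IFH1, at 8.38 and 8.63 in WT, while the FHL1 deletion gave 8.91 and 8.92 and the double deletion 4.93 and 5.39, the last pair under the limit for dim values of 5.63. FHL1 was under that limit on every array, at 4.97 and 5.08 in WT and between 2.60 and 3.15 on the 4 mutant arrays, so it is too dim to check the labels. A grouping absent from the labels showed in values that were identical to the last digit. WT of the first experiment shared 502 such probe sets with the FHL1 deletion of the second and 573 with the double deletion of the first, and these mutant arrays shared 859 with each other (array set A). All other pairs shared at most 1, and the other 3 arrays are called array set B. Both mutant arrays of set B carried markers of mating type a and the 4 other arrays those of mating type alpha. The mean of the MATa markers with values was 10.62 and 10.35 there against 6.58 to 6.82 elsewhere, and that of the MATalpha markers 6.72 and 6.74 against 10.61 to 11.64. Differences within set A therefore compare arrays with the same mating type markers. The general stress list had 17 genes tested, of which the FHL1 deletion had 7 rises and 0 falls and the double deletion 7 rises and 1 fall. Rises were 41.2% of the list in both, beside 12.9% and 9.78% of all genes, and falls 0% and 5.88%, beside 8.42% and 8.46%. Its mean level was 9.25 and 8.89 on the WT arrays of the first and second experiment, 10.11 and 9.88 in the FHL1 deletion, against 9.79 and 9.87 in the double deletion. The part of mating type and of these stress genes in the results below was not tested.

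The 49 listed genes moved little in the FHL1 deletion. In limma's test, with p-values adjusted over all genes tested and a threshold of 0.05, 4 of 49 rose (BUD21, FCF1, RRP3 and PNO1) and 1 fell (UTP20), and 44 did not pass. That is 8.16% rises and 2.04% falls, beside 12.9% and 8.42% of all genes tested, and 10.2% called in either direction beside 21.3%. The median difference of the 49 genes was 0.08 on the log2 scale, beside 0.02 over all genes tested, and they ran from -1.06 for UTP20 to 0.89 for BUD21. Differences smaller than 0.25 in either direction were found for 27 of the 49 (55.1%), beside 43.4% of all genes. The standard errors of the 49 genes ran from 0.10 to 0.35 with a median of 0.15. On both mutant arrays 19 genes lay above both WT arrays (38.8%, beside 34.1% of all genes) and 8 lay below (16.3%, beside 29.5%). UTP8 counts among the 8, though its deposited values on the set A arrays of WT and the FHL1 deletion were equal. Its difference of -0.13 within set A came from the scaling alone. Of all genes called, 60.5% were rises, and 74.2% in the deposited scaling, which moved the median of all genes by 0.109.

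In the double deletion 2 of 49 rose (FCF1 and RRP3), 0 fell and 47 did not pass, which is 4.08% rises beside 9.78% of all genes and 0% falls beside 8.46%. Together 4.08% were called, beside 18.2% of all genes. Before adjustment 9 of the 49 had limma p-values under 0.05, all of them with differences above 0, which is 18.4% beside 33.4% of all genes. The median difference was 0.19, beside 0.01 over all genes, with a range from -0.32 for UTP20 to 0.75 for RRP3. Both mutant arrays lay above both WT arrays for 28 genes (57.1%, beside 31.5%) and below for 2, UTP5 and NOP1 (4.08%, beside 29.4%). Of all genes called, 53.6% were rises here, and 65.9% in the deposited scaling. Both mutant comparisons share the WT arrays, so their values stand side by side and are not independent of each other.

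The calls of single genes rested on both WT arrays. When either WT array was left out, 0 of 49 passed in either comparison with WT. Over all genes rises then dropped too, to 4.9% and 2.78% in the FHL1 deletion (without the first and the second WT array) and to 2.99% and 1.63% in the double deletion. In the FHL1 deletion 3 rises and 2 falls passed without that group's first array (6.12% rises, beside 7.83% of all genes), and 1 rise and 0 falls without its second (2.04%, beside 6.55%). In the double deletion 0 passed without either of its own arrays, beside 4.17% and 3.14% rises of all genes. There 4 rises passed without either FHL1 deletion array (8.16%, beside 10.4% and 10.3%). With array set as a block, which takes the difference between the sets out of the spread, 10 rises and 2 falls passed in the FHL1 deletion (20.4% and 4.08%, beside 23.7% and 17.9% of all genes) and 9 rose and 0 fell in the double deletion (18.4% and 0%, beside 19.2% and 18%). With the experiment number as a block instead, 2 rises (FCF1 and BUD21) and 1 fall (UTP20) passed in the FHL1 deletion. RRP3 and PNO1 did not pass there. The rises were 4.08%, beside 6.98% of all genes, and 4.93% of all genes fell. In the double deletion 0 passed, beside 3.87% rises and 3.56% falls of all genes.

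**Figure D1:**
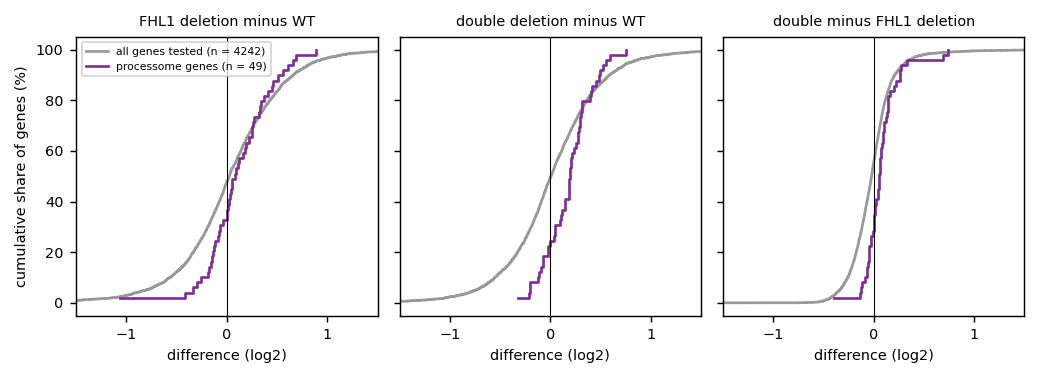
Cumulative share of genes (vertical axis, percent) by difference between groups (horizontal axis, log2) for the 49 processome genes and for all 4242 genes tested, in each of the 3 comparisons. The processome genes, far fewer in number, span a narrower range than all genes at both ends, and their medians are 0.08, 0.19 and 0.05 against 0.02, 0.01 and -0.02. Genes beyond the ends of the axis are counted but not drawn.

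**Figure D2:**
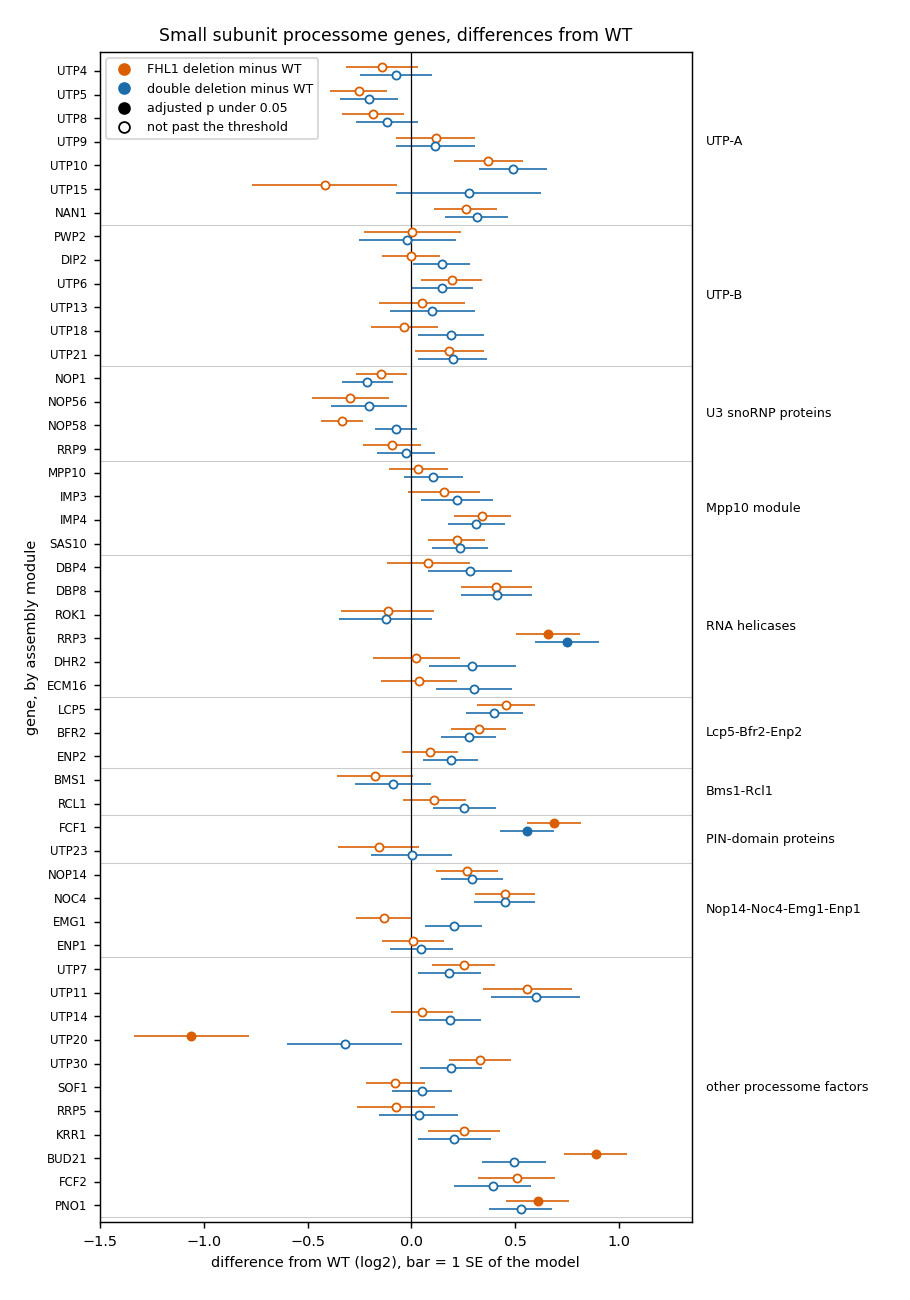
Difference from WT (horizontal axis, log2, with bars of 1 standard error) for each of the 49 genes, grouped by assembly module, in the FHL1 deletion and the double deletion, n = 2 arrays per group. Filled points passed the threshold: BUD21, FCF1, RRP3, PNO1 and UTP20 in the FHL1 deletion, FCF1 and RRP3 in the double deletion.

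The UTP-A complex, which binds the leader of the precursor first and in yeast is also tied to its transcription, had 7 genes, and 0 passed in either mutant. Their differences ran from -0.42 for UTP15 to 0.37 for UTP10 in the FHL1 deletion, with a median of -0.14, and from -0.20 for UTP5 to 0.49 for UTP10 in the double deletion, with a median of 0.12. UTP10, a large helical-repeat protein of the complex, had 10.34 and 10.31 in WT, while the FHL1 deletion gave 10.50 and 10.89 and the double deletion 10.88 and 10.75. All 4 mutant arrays lay above WT, and the larger difference, in the double deletion, was 0.49 (SE 0.17, adjusted p = 0.0828 in limma's test), with 0.55 within set A and 0.43 within set B. It passed once array set was a block (adjusted p = 0.0222). UTP15, a propeller protein, had 9.11 and 9.47 in WT, while the FHL1 deletion gave 9.46 and 8.28 and the double deletion 9.47 and 9.66. A single array, that of the FHL1 deletion in the second experiment, was apart from the others, and the group's SD of 0.83 was the largest of the 49 genes; without the group's other array UTP15 would have passed as a fall (-1.004, adjusted p = 0.0203). NAN1, which had 8.63 and 8.53 in WT, was higher on every mutant array, between 8.74 and 9.04, and did not pass (adjusted p = 0.256 and 0.195).

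The 6 genes of the UTP-B complex, which joins the precursor after UTP-A and holds the U3 ribonucleoprotein in place, did not pass in either mutant. All 6 differed from WT by less than 0.25 in both mutants, and the extremes were -0.04 and 0.19 in the FHL1 deletion, against -0.02 and 0.20 in the double deletion. UTP18, which in yeast recruits an RNA helicase of the nuclear exosome, had 10.29 and 10.68 in WT, while the FHL1 deletion gave 10.45 and 10.44 and the double deletion 10.65 and 10.69. The double deletion arrays were above the FHL1 deletion arrays by 0.23 (SE 0.16, adjusted p = 0.997), and each mutant group overlapped with WT. PWP2 differed from WT by 0.00 and -0.02 and DIP2 by 0.00 and 0.15. UTP13 (YLR222C) neighbours the deleted IFH1 gene (YLR223C) in the gene order of the RefSeq annotation R64, and no other gene of the list neighbours FHL1 or IFH1. Its signal was 9.89 and 9.56 in WT, while the FHL1 deletion gave 9.54 and 10.01 and the double deletion 9.93 and 9.73, so all groups overlapped, and the double deletion differed from the FHL1 deletion by 0.05 (SE 0.21, adjusted p = 0.999).

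The 4 protein genes of the U3 ribonucleoprotein all had differences below 0 in both mutants, and 0 passed. The direction depended on the scaling for RRP9, which lay above 0 in both mutants in the deposited scaling, and for NOP58, which did so in the double deletion in the deposited scaling and after quantile normalization. NOP1, the methyltransferase known as fibrillarin in animals, had 11.43 and 11.40 in WT, while the FHL1 deletion gave 11.21 and 11.33 and the double deletion 11.24 and 11.17. Every mutant array was below both WT arrays, by 0.14 and 0.21 between the means, with adjusted p = 0.429 and 0.269. NOP58, a core protein of the box C/D ribonucleoproteins, had 13.22 and 13.33 in WT, while the FHL1 deletion gave 12.87 and 13.01 and the double deletion 13.26 and 13.15. The FHL1 deletion arrays lay below all others, with a difference from WT of -0.34 (SE 0.10, adjusted p = 0.0539), which was -0.21 within set A and -0.46 within set B and passed once array set was a block (adjusted p = 0.021). Its 4 probe sets did not move together, with differences of -0.35, -0.34, 0.03 and 0.10 in the FHL1 deletion. NOP56, its partner in the core, had 10.93 and 10.90 in WT and 10.51 and 10.74 in the FHL1 deletion, and one double deletion array, at 10.95, was level with WT while the other was at 10.48. RRP9, the propeller protein specific to U3, differed from WT by -0.09 and -0.03.

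In the module of MPP10, IMP3 and IMP4, which guides the pairing of U3 with the precursor, and SAS10, which binds MPP10, all 4 genes had differences above 0 in both mutants, except MPP10 in the FHL1 deletion when arrays were scaled by the median over genes (-0.02), and 0 passed. IMP4 had 9.14 and 9.33 in WT, while the FHL1 deletion gave 9.56 and 9.60 and the double deletion 9.53 and 9.57. The mutant arrays were all above WT, and the difference in the FHL1 deletion was 0.34 (SE 0.14, adjusted p = 0.121), with 0.46 within set A, 0.23 within set B, and it passed once array set was a block (adjusted p = 0.044). SAS10 differed by 0.22 and 0.23, IMP3 by 0.16 and 0.22 and MPP10 by 0.03 and 0.11, and of these only for SAS10 did the mutant arrays not overlap with WT.

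RNA helicases remodel the particle, and among the 6 on the list RRP3, a DEAD-box protein, rose in both mutants. RRP3 had 9.49 and 9.21 in WT, while the FHL1 deletion gave 10.06 and 9.96 and the double deletion 10.04 and 10.17. All 4 mutant arrays lay well above WT, by 0.66 in the FHL1 deletion (SE 0.15, adjusted p = 0.0265, 1.58-fold) and by 0.75 in the double deletion (SE 0.15, adjusted p = 0.0206, 1.68-fold). The gap was larger in set B than in set A, at 0.85 against 0.47 in the FHL1 deletion and 0.96 against 0.55 in the double deletion. The WT arrays differed from each other by more than the arrays of either mutant did. With the experiment number as a block RRP3 did not pass in either mutant. DBP8, another DEAD-box protein, had 9.37 and 9.68 in WT, while the FHL1 deletion gave 10.03 and 9.85 and the double deletion 9.82 and 10.05. It did not pass, with 0.41 in both mutants (adjusted p = 0.129 and 0.142), and passed once array set was a block (adjusted p = 0.021 and 0.0227). The DEAH-box proteins DHR2 and ECM16, the latter of which strips U3 from the precursor in yeast, differed from WT by 0.02 and 0.04 in the FHL1 deletion and by 0.29 and 0.30 in the double deletion, where their arrays did not overlap with WT. DBP4, which in yeast releases a small nucleolar RNA from the particle, differed by 0.08 and 0.28, and ROK1 by -0.11 and -0.12, and none of these 4 passed.

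The proteins LCP5, BFR2 and ENP2 form a small complex of the processome, and all 3 genes were above WT on every mutant array without passing. Of all genes tested, 34.1% lay above both WT arrays on both FHL1 deletion arrays, and 31.5% on both double deletion arrays. LCP5 had 8.77 and 8.85 in WT, while the FHL1 deletion gave 9.25 and 9.29 and the double deletion 9.31 and 9.11. Its difference was 0.46 in the FHL1 deletion (SE 0.14, adjusted p = 0.0556) and 0.40 in the double deletion (adjusted p = 0.0899), with set values of 0.52 and 0.40 in the former, and it passed once array set was a block (adjusted p = 0.0171 and 0.0299). BFR2 differed by 0.32 and 0.28 and ENP2 by 0.09 and 0.19. BFR2 passed in the FHL1 deletion once array set was a block (adjusted p = 0.032).

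BMS1, a GTPase of the particle, and its partner RCL1 did not pass. RCL1 had 8.53 and 8.69 in WT, while the FHL1 deletion gave 8.58 and 8.86 and the double deletion 8.87 and 8.87. Only the double deletion arrays were both above WT, by 0.26 (SE 0.15, adjusted p = 0.286), and BMS1 differed from WT by -0.18 and -0.09 with overlapping arrays.

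FCF1, the PIN-domain nuclease that cuts the precursor, rose in both mutants, while UTP23, a related PIN-domain protein, did not pass. FCF1 had 9.07 and 9.02 in WT, while the FHL1 deletion gave 9.74 and 9.72 and the double deletion 9.63 and 9.57, so the arrays of each group lay close together and every mutant array lay above WT. It rose by 0.68 in the FHL1 deletion (SE 0.13, adjusted p = 0.014, 1.61-fold) and by 0.56 in the double deletion (SE 0.13, adjusted p = 0.0303, 1.47-fold). Both array sets gave nearly the same values, 0.65 and 0.72 in the FHL1 deletion, against 0.56 and 0.56 in the double deletion. UTP23 had 10.25 and 10.42 in WT, while the FHL1 deletion gave 9.99 and 10.37 and the double deletion 10.53 and 10.15, and each mutant group straddled or overlapped WT.

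Of the module of NOP14 and NOC4 with the methyltransferase EMG1 and the export-stage factor ENP1, 0 of 4 passed. NOC4 had 9.41 and 9.54 in WT, while the FHL1 deletion gave 9.92 and 9.93 and the double deletion 9.81 and 10.04. All mutant arrays were higher, with a difference of 0.45 in both mutants (SE 0.15, adjusted p = 0.0665 and 0.0739), and it passed once array set was a block (adjusted p = 0.0188 and 0.0205). NOP14, which binds NOC4, had 7.65 and 7.51 in WT and 7.78 to 7.96 on the mutant arrays. EMG1 had 10.44 and 10.64 in WT, while the FHL1 deletion gave 10.42 and 10.39 and the double deletion 10.70 and 10.78, so the single mutant lay below WT and the double mutant above it, and ENP1 differed from WT by 0.01 and 0.05.

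The 11 remaining factors held the largest differences of the 49 genes in either direction in the FHL1 deletion, BUD21 and UTP20. BUD21, a factor of the particle that is also known as UTP16, had 9.17 and 9.17 in WT, while the FHL1 deletion gave 9.90 and 10.22 and the double deletion 9.64 and 9.69. The WT arrays were level, and the FHL1 deletion arrays were the highest of all. BUD21 rose by 0.89 in the FHL1 deletion (SE 0.15, adjusted p = 0.00984, 1.85-fold), with 1.05 within set A and 0.73 within set B. In the double deletion the difference was 0.49 (adjusted p = 0.0653, or 0.0222 once array set was a block), and the step from the FHL1 deletion to the double deletion, -0.39, did not pass (SE 0.15, adjusted p = 0.951).

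PNO1, a KH-domain protein that stays with the small subunit until its last maturation in the cytoplasm, had 10.96 and 10.99 in WT, while the FHL1 deletion gave 11.40 and 11.76 and the double deletion 11.56 and 11.44. All mutant arrays were above WT. It rose by 0.61 in the FHL1 deletion (SE 0.15, adjusted p = 0.0314, 1.53-fold), with 0.80 within set A and 0.42 within set B. With the experiment number as a block PNO1 did not pass there. In the double deletion the difference of 0.53 did not pass (adjusted p = 0.0522), and it passed once array set was a block (adjusted p = 0.0157). UTP11 had 7.91 and 7.62 in WT, while the FHL1 deletion gave 8.05 and 8.60 and the double deletion 8.44 and 8.29, with differences of 0.56 and 0.60 (adjusted p = 0.105 and 0.0963). It passed in both once array set was a block (adjusted p = 0.0126 and 0.0109). FCF2 had 9.29 and 9.65 in WT, while the FHL1 deletion gave 9.80 and 10.15 and the double deletion 9.83 and 9.89, and did not pass (0.51 and 0.39, adjusted p = 0.0917 and 0.187). UTP30 and UTP7 were above WT on all mutant arrays, by 0.33 and 0.25 in the FHL1 deletion and by 0.19 and 0.18 in the double deletion, without passing. For UTP7 the gap was nearly nil on 1 array, with 8.428 in the double deletion of the first experiment against 8.426 in WT of the second. KRR1, a KH-domain protein, differed by 0.25 in the FHL1 deletion with overlapping arrays. UTP14, which activates the helicase ECM16 in yeast, SOF1, and RRP5, a protein needed for both ribosomal subunits, stayed between -0.08 and 0.05 in the FHL1 deletion and between 0.03 and 0.19 in the double deletion.

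**Figure D3:**
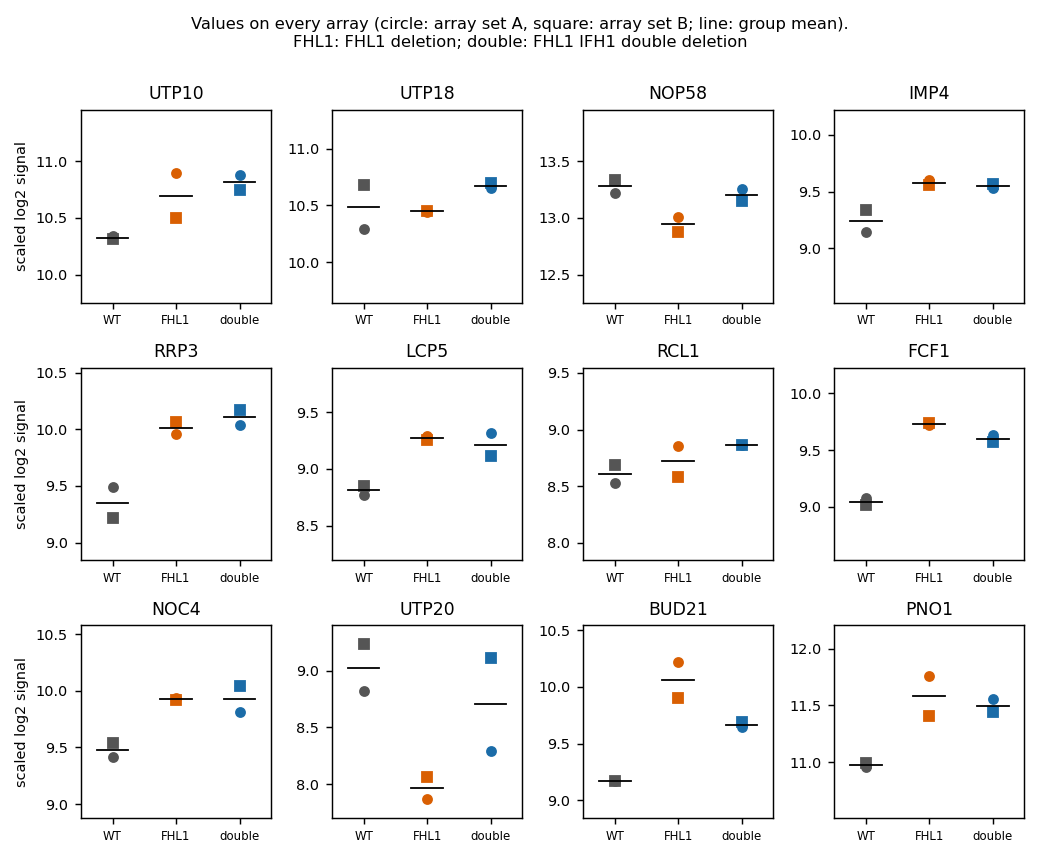
Scaled log2 signal (vertical axis, same span in each panel) on every array of 12 genes (those past the threshold and, in modules with none, the gene with the smallest p), by group, with the group mean as a line and the array set as the symbol. In RRP3, FCF1, BUD21 and PNO1 all mutant arrays lie above both WT arrays, and UTP20 shows the FHL1 deletion arrays, at 8.06 and 7.87, below all others.

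UTP20, a very large protein built of helical repeats, was the only gene of the 49 called as a fall, and its call depended on the probe set. The brightest of its 10 probe sets, 2468_s_at, carries a suffix (s) for probes that can match more than 1 sequence and had 8.82 and 9.23 in WT, while the FHL1 deletion gave 8.06 and 7.87 and the double deletion 8.30 and 9.11. The FHL1 deletion arrays were lowest and the double deletion arrays far apart. By this probe set UTP20 fell by 1.06 in the FHL1 deletion (SE 0.28, adjusted p = 0.0361, 2.09-fold), -0.95 within set A and -1.17 within set B, and differed by -0.32 in the double deletion (adjusted p = 0.466). The next brightest, 7357_at, had 8.69 and 8.36 in WT, while the FHL1 deletion gave 8.36 and 8.65 and the double deletion 8.66 and 8.48, so there the groups overlapped and the differences were -0.02 and 0.05. Over all 10 probe sets the difference in the FHL1 deletion ran from -2.42 to -0.02 with a median of -1.24, and 5 of the 10 lay above the limit for dim values on every array. In the double deletion 8 of 10 were lower than WT, from -1.07 to 0.16 with a median of -0.65. With the mean of its probe sets the gene was too dim to be tested, with only probe sets of plain suffix it did not pass (adjusted p = 0.948), and with no filter on low values it did not either (adjusted p = 0.115).

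Measures of RNA quality differed between the arrays on which UTP20 differed. The signal of the probe set for the 3′ part of the control transcript SRB4 minus that for its 5′ part was 2.25 and 1.52 in WT, while the FHL1 deletion gave 3.09 and 2.39 and the double deletion 2.70 and 1.89, with set A first. On 2467_s_at, a UTP20 probe set other than the one used for the gene, the values in the same order were 8.62 and 9.50, 6.74 and 7.05, and 7.88 and 8.89. On this probe set the WT array of set B was highest, and its SRB4 gap was lowest. The FHL1 deletion array of set A was lowest on it and highest in the SRB4 gap. In between the orders differed, since the FHL1 deletion array of set B had a smaller SRB4 gap than the double deletion array of set A and also a lower signal on 2467_s_at. The probe set used, 2468_s_at, was highest and lowest on the same arrays, at 9.23 and 7.87. On 7357_at it was otherwise, with the WT array of set B lowest, at 8.36, and the FHL1 deletion array of set A at 8.65. On 2465_s_at the FHL1 deletion array of set B was lowest, at 5.90, with that of set A at 6.02. Probe set 2469_s_at was highest on the WT array of set A, at 7.72, and lowest on the FHL1 deletion array of set B, at 6.82. The corresponding gap of ACT1 was between 0.93 and 0.96 in WT and between 1.02 and 1.15 on the mutant arrays, highest on the FHL1 deletion array of set B. The SPT15 gap did not follow 2467_s_at, and with set A first had 0.98 and 1.12 in WT, while the FHL1 deletion gave 1.11 and 1.22 and the double deletion 1.23 and 1.14. The part of RNA quality in the UTP20 values was not tested.

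**Figure D4:**
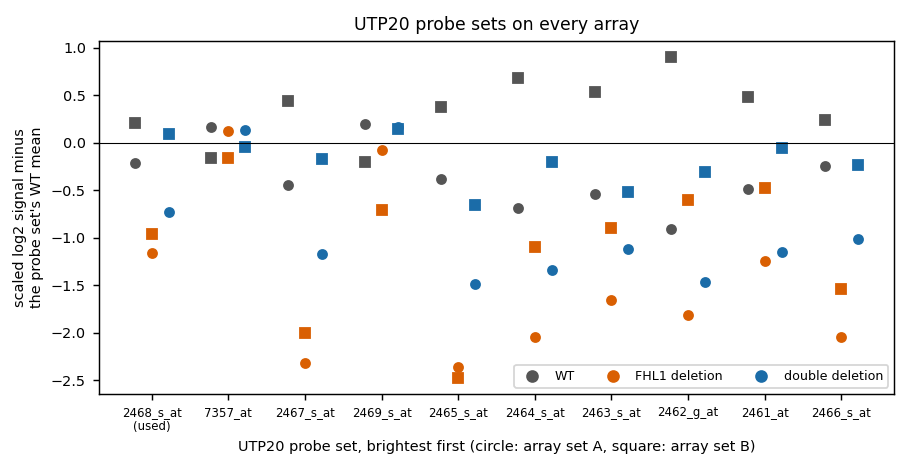
Scaled log2 signal of each UTP20 probe set on every array, minus that probe set's mean over the WT arrays (vertical axis), with probe sets ordered by brightness (horizontal axis). The FHL1 deletion points lie low in most probe sets, whereas in 7357_at all groups overlap around 0, with a difference of -0.02.

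Loss of IFH1 on top of FHL1 left 0 of 49 genes past the threshold in limma's test, in either direction, beside 0% rises and 0.0236% falls among all genes. Before adjustment 4 of the 49 fell under 0.05 in that test (8.16%, beside 5.02% of all genes). These were UTP20 at 0.74 (SE 0.28), NOP58 at 0.26 (SE 0.10), EMG1 at 0.34 (SE 0.14) and BUD21 at -0.39 (SE 0.15), and their adjusted p in limma's test lay between 0.95 and 0.974. Probe sets differed here too. Those of UTP20 ran from 0.07 on 7357_at to 1.49 on 2467_s_at, and the 4 of NOP58 gave 0.26, 0.11, 0.09 and -0.19. The median of the 49 genes was 0.05, beside -0.02 over all genes, and 42 of 49 (85.7%, beside 81.4%) differed by less than 0.25. The double deletion arrays lay above both FHL1 deletion arrays for 9 genes (18.4%, beside 12.5%) and below both for 2 (4.08%, beside 19%). With array set as a block 0 of 49 passed, beside 0.0943% rises among all genes.

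Array set moved with the size of these differences. In the FHL1 deletion the median of the 49 genes was 0.18 within set A and -0.02 within set B, beside 0.003 and 0.035 over all genes. Their median thus lay above that of all genes in set A and below it in set B. The same sign in both sets was found for 36 of 49 (73.5%, beside 81.3% of all genes). In the double deletion the medians were 0.25 and 0.14, beside -0.022 and 0.017 over all genes, with 40 of 49 of the same sign (81.6%, beside 81.8%). Among the genes called, BUD21, FCF1, RRP3 and PNO1 were above WT in both sets and UTP20 was below in both. These genes were called on the same arrays, and where called, their mutant arrays all lay on one side of both WT arrays. That fixes the same sign in both sets, so it is no separate check of the calls. Set B is also where the mutant arrays carried markers of the other mating type, so set and mating type cannot be told apart in the mutant arrays.

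**Figure D5:**
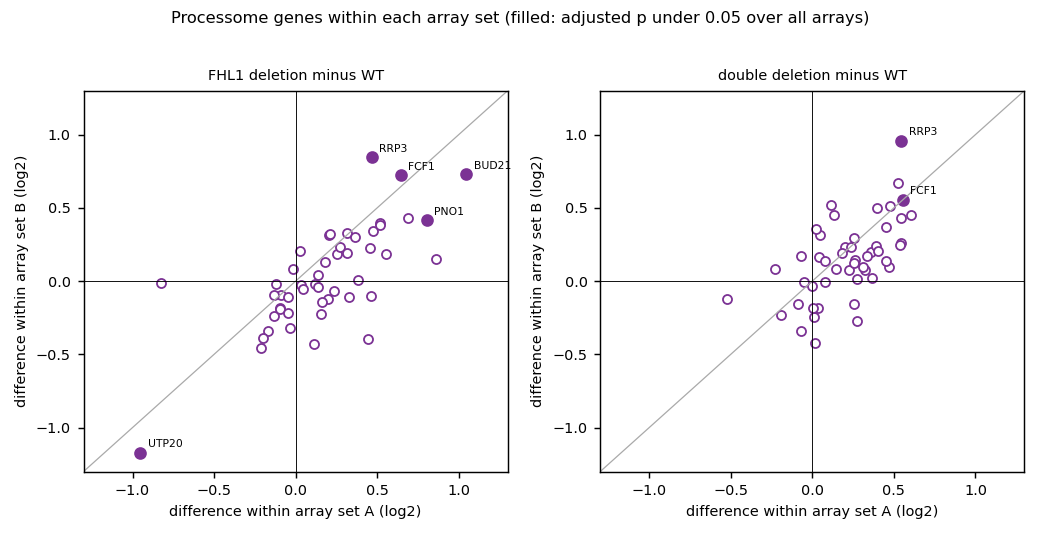
Difference of each of the 49 genes from WT within array set A (horizontal axis) and within array set B (vertical axis), both log2 and 1 array against 1, for the FHL1 deletion and the double deletion. Filled points passed the threshold over all arrays. In both panels they lie in the quadrants where the sets have the same sign, which follows from their mutant arrays not overlapping with WT.

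A list of 41 other factors of small-subunit assembly was set beside the processome genes. Of these 36 were tested. The FHL1 deletion had 3 rises and 2 falls among them and the double deletion 2 rises and 1 fall, with medians of 0.05 and 0.10. That is 8.33% rises and 5.56% falls in the former, beside 12.9% and 8.42% of all genes, and 5.56% and 2.78% in the latter, beside 9.78% and 8.46%. UTP22, which shares a complex with IFH1, had 9.85 and 9.97 in WT, while the FHL1 deletion gave 9.06 and 8.90 and the double deletion 9.10 and 8.94. It fell by 0.93 (SE 0.14, adjusted p = 0.00692) and by 0.89 (SE 0.14, adjusted p = 0.00983), was lower on every mutant array, and all 6 of its probe sets were lower in both mutants, 4 of them above the limit for dim values throughout. With set A first, its probe set 2215_g_at had 8.10 and 9.26 in WT, while the FHL1 deletion gave 5.83 and 6.43 and the double deletion 6.70 and 7.63. Like UTP20 it was highest on the WT array of set B and lowest on the FHL1 deletion array of set A. The part of RNA quality in it was not tested. CKA1, a catalytic subunit of casein kinase 2, fell by 0.71 in the FHL1 deletion (SE 0.18, adjusted p = 0.0327) and differed by -0.59 in the double deletion (adjusted p = 0.0613). FAL1, a DEAD-box helicase of small-subunit assembly, rose by 0.81 (SE 0.19, adjusted p = 0.0282) and by 0.80 (adjusted p = 0.0348), and CMS1 by 0.63 (SE 0.15, adjusted p = 0.0256) and by 0.60 (adjusted p = 0.0348). EFG1 rose by 0.72 in the FHL1 deletion (SE 0.19, adjusted p = 0.0357), with all 4 of its probe sets higher, 1 of them under the limit for dim values throughout, and differed by 0.59 in the double deletion (adjusted p = 0.0703). Its plain-suffix probe set gave 0.23 in the FHL1 deletion and did not pass (adjusted p = 0.401). Without either WT array CKA1, FAL1, CMS1 and EFG1 did not pass, and UTP22 did not pass without that of the second experiment (adjusted p = 0.055 and 0.0674) or, in the double deletion, without that group's second array (adjusted p = 0.051). Among 10 regulators of ribosomal genes, 7 were tested, and only IFH1 passed, as a fall in the double deletion.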

How the data were processed

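The values the authors deposited are taken as log2 signals of 9335 probe sets, judged by their range, and the sources used here do not say how they were summarised or normalised. The platform annotation names 1 gene for 6504 probe sets and several for 328, and genes were matched by gene identifier to the RefSeq annotation R64, which served for names and gene order only. No sequence was analysed here. Each array's median over the 6504 probe sets was set to a common value, a floor was put at the 10th percentile (5.63), and the dimmest 25% of genes by mean were not tested. limma 3.58.1 in R 4.3.3 fitted 1 mean per group over all 6 arrays (3 residual degrees of freedom), with eBayes and a trend of spread on signal, two-sided, adjusted by Benjamini and Hochberg over 4242 genes in each comparison. The model was tested on simulated data. Values and tests are given for each gene past the threshold and, in modules with none, for the gene with the smallest p. Other genes given with values on each array were picked after their values were seen. The genes and lists were chosen with earlier results of these data known. Figures were drawn with matplotlib 3.10.9 in Python 3.11.15.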

Additional observations from a re-analysis of the deposited data

How the results depend on the processing

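The 5 processome genes called, and the 5 other assembly factors called, kept their direction under every alternative in which they were tested. The alternatives were other scalings, floors, filters and probe-set rules, blocks, only the arrays compared, no trend and each array left out; with the mean of probe sets UTP20 was not tested. The medians of the 49 genes stayed above 0, from 0.03 to 0.19 in the FHL1 deletion, 0.16 to 0.27 in the double deletion and 0.03 to 0.07 between the mutants, and without 1 array from 0.0691 to 0.19, 0.14 to 0.25 and 0.0098 to 0.09. The counts of calls were less stable. In the FHL1 deletion rises numbered 10 with array set as a block and 2 with the experiment number as a replicate block (4.08%, beside 6.98% of all genes), and 0 to 4 without 1 array. Falls numbered 2 with array set as a block, 2 with the dimmest 50% of genes left out (beside 9.62% of all genes), 2 with the median over the brightest probe set of each gene (chosen after seeing the data, beside 10.2%), and 0 with no filter (beside 5.64%), with the mean of probe sets (beside 8.6%) or with plain-suffix probe sets (beside 8.18%), and 0 to 2 without 1 array. In the double deletion rises numbered 5 in the deposited scaling (10.2%, beside 12.3% of all genes), 9 with array set as a block, 0 with the experiment number as a replicate block (beside 3.87%), 4 with only the arrays compared (8.16%, beside 10.4%), and 0 to 4 without 1 array. Between the mutants they numbered 0 to 1 without 1 array, the 1 being UTP15 when the first FHL1 deletion array was left out. A lone array left in a group was assumed to vary like the others. Whether the experiment numbers pair the arrays could not be settled from the values. Deviations from the group means of same-numbered arrays correlated at -0.378 between WT and the FHL1 deletion. They correlated at 0.42 between WT and the double deletion and at -0.635 between the mutants. The block by array set is the crossed pairing wherever the FHL1 deletion enters. With 2 arrays per group the correlations by array set there only change sign, to 0.378 and 0.635. Over all genes the experiment block called 296 rises and 209 falls without FHL1 and 164 rises and 151 falls without both, where the block by array set called 1007 and 760, then 815 and 762.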
